A study of Mus musculus with 44 samples.

Results

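H19, Igf2, Afp, Gpc3, Golm1, Ly6d, Sox4 and Tspan8, a set of 8 genes known as oncofetal or liver tumour markers, were followed through every mouse liver library of the study. They were taken from a list of names and matched by Ensembl identifier and symbol, which gave 8 of the 35249 genes in the count table. The members were chosen by name with values of these data known, among them the level of H19 in wild-type livers on the 2 choline-deficient diets and the level of Ly6d in wild-type livers on the low-fat one, and because some members varied between livers. Differences of H19 that contain those libraries, differences of Ly6d that contain the wild-type libraries of the control or the low-fat diet, and the spread between livers are therefore given as descriptions without a test. Of the 8 genes, 7 passed the low-count filter and were tested among 14862 genes. Igf2 did not pass. The filter asked for 1.48 library-size-normalised counts (CPM) in at least 3 libraries. H19 and Gpc3 reached it only through libraries of the high-fat choline-deficient diet and Tspan8 only with choline-deficient ones, so these genes could not have been tested without being high somewhere, and counts over the tested members are descriptions.

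The study fed wild-type (WT), Ripk3 knockout (Ripk3KO) and Mlkl knockout (MlklKO) mice from 2 months of age for 6 months. Control mice ate normal chow, and the other diets lacked choline and were either low (CD-LFD) or high (CD-HFD) in fat. Ripk3 encodes the kinase and Mlkl the membrane-disrupting effector of necroptosis, a lytic form of programmed cell death. Total RNA of 44 livers was sequenced, 6 libraries for each WT group, 6, 3 and 4 for Ripk3KO on control, CD-LFD and CD-HFD, and 6, 4 and 3 for MlklKO. The labels give no sex, litter or batch and do not say in which cells the genes were deleted, and p-values measure the spread between these libraries.

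Oncofetal genes are active in the fetal liver, are silenced after birth and can be expressed again in regenerating, injured or malignant liver. H19 is an imprinted long noncoding RNA read from the maternal chromosome, next to Igf2, a fetal growth factor read from the paternal one. Afp encodes alpha-fetoprotein, the main serum protein of the fetus, and Gpc3 encodes a heparan sulphate proteoglycan of the cell surface. Both are used to detect hepatocellular carcinoma, as is Golm1, which encodes a Golgi membrane protein. Sox4 is a transcription factor of progenitor cells, and Ly6d and Tspan8 encode surface proteins of the Ly6 and tetraspanin families.

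H19 RNA is also the precursor of a pair of microRNAs. Their mature sequences are shown because they are the short products by which H19 RNA can act on other transcripts. The seed, bases 2 to 8, is in capitals, and the positions are those of RefSeq on GRCm38.p6, minus strand. The 2 arms carry different seeds. The libraries did not measure these microRNAs.
mmu-miR-675-5p, chr7:142577112-142577133: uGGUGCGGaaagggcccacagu
mmu-miR-675-3p, chr7:142577078-142577099: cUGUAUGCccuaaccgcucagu

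Levels are library-size-normalised counts (CPM) scaled by trimmed mean of M values (TMM) factors, and differences are log2 differences from edgeR's quasi-likelihood fit over all 44 libraries. A gene was called when its Benjamini-Hochberg adjusted p was under 0.05. Total counts ran from 2476268 to 12471844 in 43 libraries and reached 88204703 in WT CD-LFD replicate 3. For the label checks, CPM without TMM factors were used. Ripk3 stood at 0.439 to 5.94 CPM in the WT libraries and at no more than 0.263 in the Ripk3KO libraries, except the library labelled Ripk3KO control replicate 5 at 1.01 CPM (9 counts). Mlkl was lower in MlklKO than in WT livers on both choline-deficient diets, but the library labelled MlklKO CD-HFD replicate 1 stood at 14.4 CPM beside 17.2 to 22.6 in WT, and the control ranges overlapped. MlklKO CD-HFD replicates 2 and 4 stood at 6.02 and 3.55 CPM of Mlkl. The source of the Ripk3 and Mlkl reads in the knockout libraries, a mixed or wrong label included, was not tested. Ripk3KO CD-LFD replicate 3 held Xist (11.7 CPM) together with the Y-linked gene Ddx3y (50.1 CPM). The ratio of the clock genes Arntl and Dbp split the libraries into 33 and 11. The smaller set held WT control replicates 1, 3, 5 and 6, every WT CD-LFD library and WT CD-HFD replicate 3, so clock phase and genotype cannot be told apart on CD-LFD. Alb, which encodes the main serum protein of hepatocytes, averaged 86100 TMM-scaled CPM in WT control and 47400 in WT CD-HFD livers, so the tissue label was met.

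On the high-fat choline-deficient diet, nearly the whole set stood above its control-diet level in every genotype. In WT livers, Afp, Golm1, Sox4 and Tspan8 rose and Gpc3 was not called, 4 of the 5 members tested there, where 23.5% of all tested genes were called higher. H19 and Ly6d, given without a test, were 8.14 and 7.15 higher. In Ripk3KO and in MlklKO livers 7 of 7 rose, where 24.6% and 24.9% of all tested genes did. These counts are descriptions, because H19 and Gpc3 passed the filter only through CD-HFD libraries and Tspan8 only with choline-deficient ones. No member fell in these 3 comparisons, where 24.1%, 21.7% and 20.3% of all tested genes were called lower. Without 5 libraries (WT control replicates 1, 3, 5 and 6 and WT CD-HFD replicate 3), which leaves 1 clock phase in this comparison, 4 of the 5 WT members were again called, with Gpc3 in place of Golm1. Without the 3 libraries whose labels were in doubt, 6 of 7 were called in Ripk3KO and 7 of 7 in MlklKO.

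**Figure D1:**
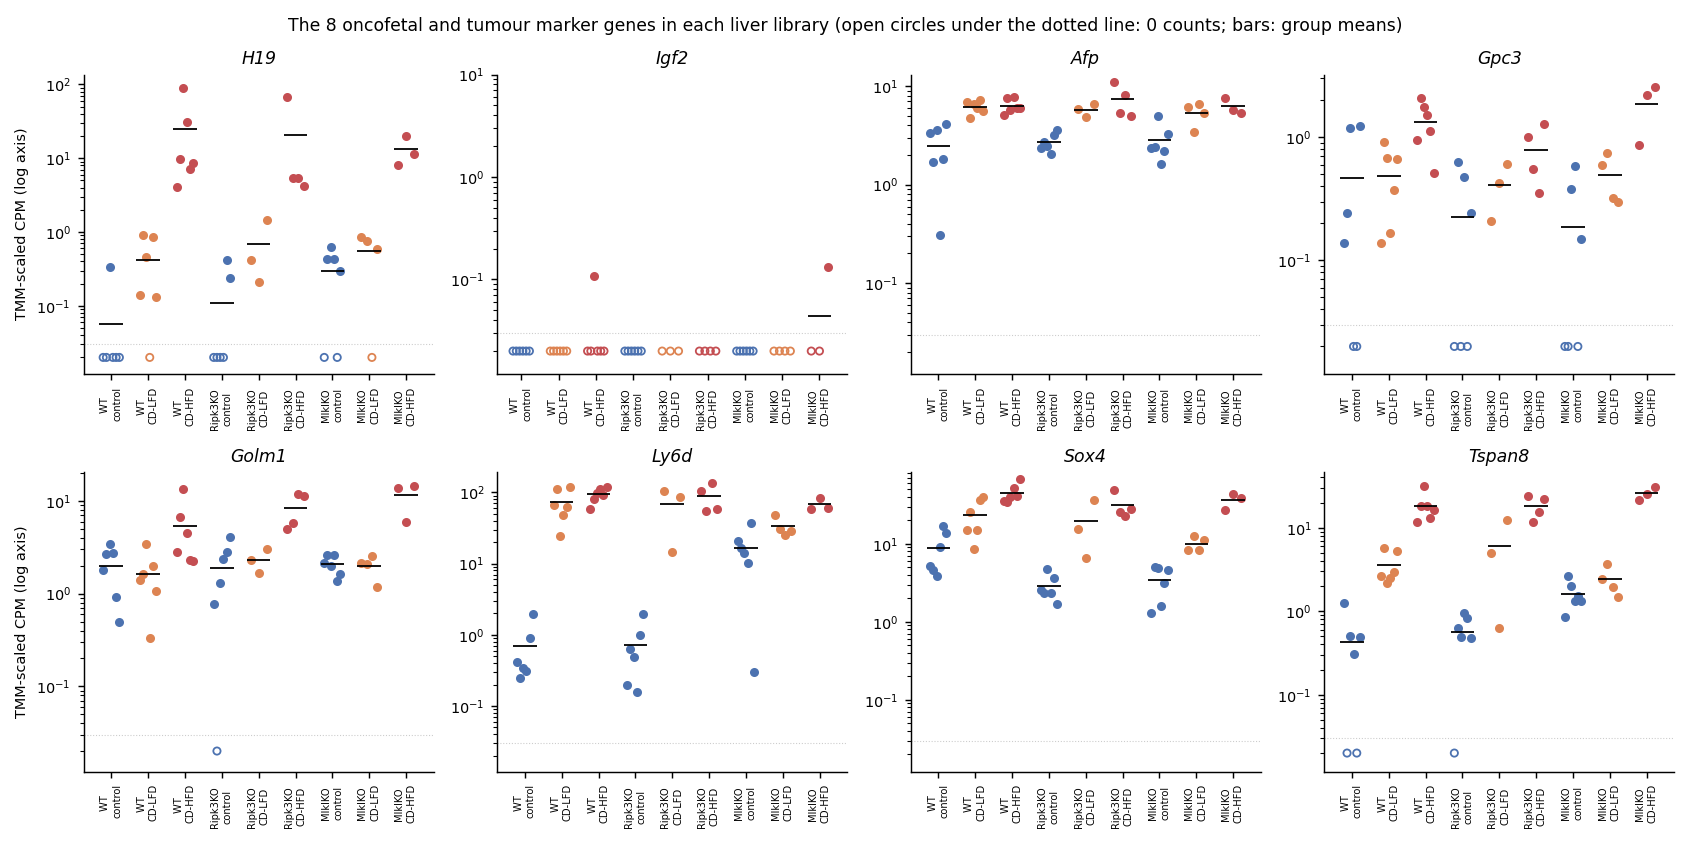
TMM-scaled CPM on a log axis for each of the 8 genes, 1 point per library, by genotype and diet, with bars at group means and open circles for 0 counts. H19 stayed at or below 1.44 CPM outside CD-HFD and at or above 4.06 on it, Ly6d was high in 5 of 6 MlklKO control livers, and Igf2 was at 0 counts in 42 libraries.

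The low-fat choline-deficient diet moved fewer members. In Ripk3KO, Afp, Ly6d, Sox4 and Tspan8 rose on CD-LFD against control (4 of 7; 14% of all tested genes were called higher), and in MlklKO Afp and Sox4 rose (2 of 7; 19.7%). In WT, Afp, Sox4 and Tspan8 rose (3 of the 5 tested; 13.7%). Between CD-HFD and CD-LFD, the count was 3 of 7 in Ripk3KO (H19, Golm1 and Tspan8; 5.75%), 5 of 7 in MlklKO (H19, Gpc3, Golm1, Sox4 and Tspan8; 14.6%) and 3 of the 5 tested in WT (Golm1, Sox4 and Tspan8; 13.7%). Comparisons within a genotype share libraries, so these counts are not independent of each other. They are descriptions too, for the same reason of the filter.

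**Figure D2:**
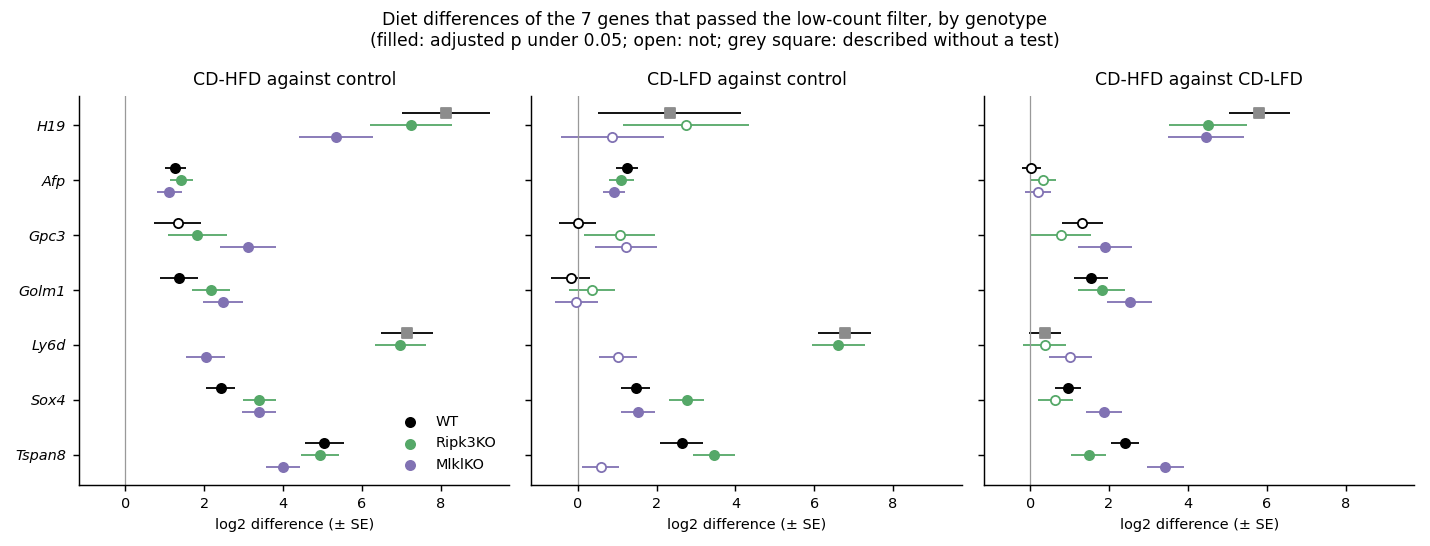
Log2 differences with standard errors for the 7 tested genes between diets, by genotype, with filled points at adjusted p under 0.05 and grey squares for the contrasts given without a test. Afp and Ly6d sit near 0 between CD-HFD and CD-LFD in WT (0.03 and 0.37), whereas Tspan8 is above 0 in every panel.

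H19 was near 0 outside the high-fat choline-deficient diet and was read in every liver on it. WT control livers held 0 CPM in 5 libraries and 0.341 in the other, with 2 counts in all. On CD-LFD the 6 WT livers stood at 0.14, 0.905, 0.459, 0, 0.866 and 0.133 CPM, and on CD-HFD at 4.06, 9.86, 89.6, 30.8, 7.17 and 8.57. Every WT CD-HFD liver was above every other WT liver, and replicates 3 and 4 were far above the other 4. The WT mean was 0.0568 ± 0.139 CPM on control (SD, n = 6), 0.417 ± 0.393 on CD-LFD, then 25.0 ± 33.0 on CD-HFD. The fitted difference between CD-HFD and control was 8.14 (SE 1.11). A fitted value from so few control counts depends on the prior count, and the pooled ratio was 331 with a 95% exact counting interval of 91.5 to 2740, which covers counting error only. The difference between CD-HFD and CD-LFD in WT was 5.81. Without CD-HFD replicate 3 these differences were 7.10 and 4.77, and without control replicate 3, which held both control counts, the first was 10.8.

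The knockouts gave the same order of diets for H19. Ripk3KO CD-HFD livers stood at 67.3, 5.37, 5.42 and 4.18 CPM, against 0.417, 0.211 and 1.44 on CD-LFD and 0 to 0.419 on control. MlklKO CD-HFD livers stood at 8.18, 19.8 and 11.6 CPM, against 0.848, 0.745, 0 and 0.596 on CD-LFD and 0 to 0.628 on control. In both, the CD-HFD livers did not overlap the rest, and control and CD-LFD livers overlapped each other. H19 rose by 7.25 (SE 1.04, adjusted p 2.69e-07) in Ripk3KO and by 5.34 (SE 0.934, adjusted p 9.7e-06) in MlklKO between control and CD-HFD, by edgeR's quasi-likelihood test. H19 passed the low-count filter only through CD-HFD libraries, and with no filter these were 7.27 (2.53e-10) and 5.34 (9.05e-08). The CD-HFD against CD-LFD differences were 4.51 (SE 1.0, adjusted p 0.00277) and 4.46 (SE 0.958, adjusted p 0.000636). With no filter they were 4.51 (0.000198) and 4.46 (3.92e-05). Without Ripk3KO CD-HFD replicate 1 the first was 2.51 with adjusted p 0.0689. The Ripk3KO difference from control was 5.24 (3.1e-05) without that library and 8.59 (1e-06) without control replicate 5, and that from CD-LFD was 5.97 (0.00704) without CD-LFD replicate 3. CD-LFD against control gave 2.74 in Ripk3KO (adjusted p 0.207, edgeR), 0.88 in MlklKO (0.618) and 2.33 in WT. The 3 CD-HFD groups came first and overlapped, and the other 6 groups overlapped one another. The order of the first 3 was WT, Ripk3KO and MlklKO by mean and MlklKO, WT and Ripk3KO by median (11.6, 9.21 and 5.4 CPM).

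Igf2, the partner of H19 in the same imprinted domain, was almost unread. A single count was seen in 1 WT CD-HFD library and in 1 MlklKO CD-HFD library, and none in the other 42. A count of 0 allows up to 3 counts, which is a level of at most 0.522 CPM in the CD-HFD libraries, where H19 was 4.06 CPM or more. No library held more Igf2 than that floor.

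RNAs of the other large cluster of imprinted noncoding RNAs, the Dlk1-Meg3 domain, also stood higher on CD-HFD. Meg3, a maternally expressed long noncoding RNA, had 1.84 to 28.8 CPM in WT control livers and 137 to 437 on CD-HFD, and rose by 4.80 (SE 0.61, adjusted p 1.89e-08). Rian, which hosts small nucleolar RNAs, went from 0 to 4.11 CPM on control to 44 to 107 on CD-HFD and rose by 5.76 (SE 0.565, adjusted p 4.47e-11, edgeR). Their order over livers was not that of H19. Meg3 was already at 23.9 to 301 CPM on CD-LFD, where H19 was at most 0.905, and WT CD-HFD replicate 6 had the most Meg3 (437 CPM) with 8.57 CPM of H19. Meg3 rose by 6.09 in Ripk3KO and 5.48 in MlklKO (adjusted p 8.98e-10 and 1.58e-08), and Rian by 5.68 and 5.04 (8.14e-11 and 3.76e-09). Mirg, a noncoding RNA that hosts microRNAs, had 2 counts in the WT controls and 364 on CD-HFD, a pooled ratio of 86.8 (95% counting interval 23.8 to 719). Dlk1, the protein-coding fetal gene of that domain, did not pass the filter and averaged 0.353 ± 0.574 CPM in WT CD-HFD livers (n = 6).

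Of 17 tested genes in a list of imprinted growth genes and repressors of fetal liver genes, 7 rose and 5 fell in WT on CD-HFD, with a median log2 difference of 0.09, beside 23.5% and 24.1% of all tested genes. Rian and Mirg had the largest rises. Among genes chosen after values were seen, Cdkn1c, a cell cycle inhibitor, rose by 2.52 (adjusted p 1.2e-06), and Peg3, a zinc finger gene, fell by 2.02 on the log2 scale. The counts were 7 and 2 in Ripk3KO (24.6% and 21.7% of all tested genes) and 5 and 2 in MlklKO (24.9% and 20.3%). Of 16 tested genes of the insulin-like growth factor system, 4 rose and 6 fell in WT (median -0.50), and the share that rose was near that of all tested genes (23.5%). Igfbp7, a binding protein, went from 66.5 to 314 CPM, and Ghr, the growth hormone receptor, from 520 to 198. Igf2r, the receptor that clears IGF2, also chosen after values were seen, had a difference of 0.04 (adjusted p 0.89).

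**Figure D3:**
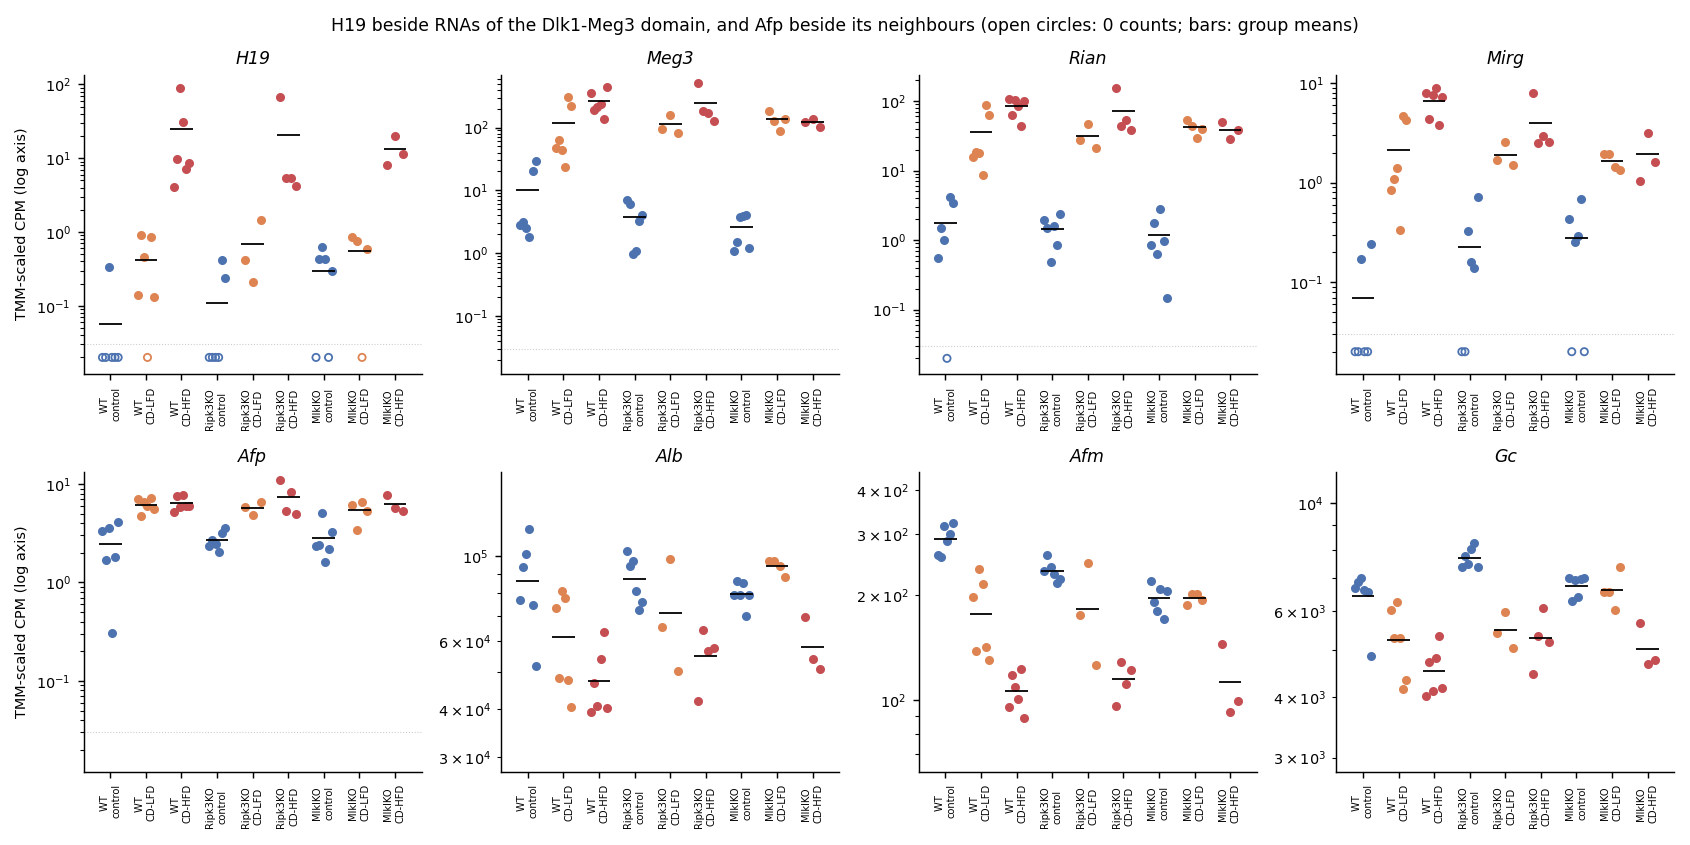
TMM-scaled CPM on a log axis, 1 point per library with bars at group means, for H19 beside RNAs of the Dlk1-Meg3 domain and for Afp beside its chromosomal neighbours. Meg3 is raised on both choline-deficient diets, H19 on CD-HFD, and Alb and Afm lie lower on CD-HFD where Afp lies higher.

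Afp differed from H19 in that both choline-deficient diets gave similar levels. WT control livers stood at 3.31, 1.71, 3.58, 0.307, 1.83 and 4.16 CPM. CD-LFD livers stood at 6.98, 4.71, 6.63, 6.01, 7.17 and 5.59, and CD-HFD livers at 5.15, 7.55, 5.78, 7.68, 5.96 and 5.99. Every choline-deficient WT liver was above every control liver, and the 2 diets overlapped. The means were 2.48 ± 1.44, 6.18 ± 0.933 and 6.35 ± 1.03 CPM (SD, n = 6 each). Afp rose by 1.27 on CD-HFD (SE 0.275, adjusted p 0.000201) and by 1.24 on CD-LFD (SE 0.276, adjusted p 0.000835), by edgeR's quasi-likelihood test, and CD-HFD against CD-LFD gave 0.03 (SE 0.241, adjusted p 0.95). Over 23 alternative fits each, the first 2 differences ran from 0.92 to 2.57 and from 0.89 to 2.52, and both kept the call in all. In Ripk3KO Afp rose by 1.42 (adjusted p 7.95e-05) and 1.10 (0.0107) on the same diets, and in MlklKO by 1.12 (0.00308) and 0.92 (0.012). The CD-LFD call in Ripk3KO rested on replicate 3 of that group, without which it was 0.97 with adjusted p 0.105. The 6 choline-deficient groups, at means of 5.39 to 7.38 CPM, overlapped one another.

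The 250 bases before the start of Afp are shown because adult silencing of the gene is known to act through its promoter, which the repressors Zhx2 and Zbtb20 control. The sequence is RefSeq's on GRCm38.p6, plus strand. Capitals mark the letters TATAAA, which begin 7 bases before the start given by RefSeq. Whether they act as a TATA box was not tested. On either strand, TATAAA or its reverse TTTATA occurs in 12.4% of 32851 promoter windows of this length. The exact letters TGTTTAC, a form of the core bound by FOXA factors, occur in 3.17% and are not in this window. Other forms of that core were not searched for.
Afp promoter, chr5:90490464-90490713: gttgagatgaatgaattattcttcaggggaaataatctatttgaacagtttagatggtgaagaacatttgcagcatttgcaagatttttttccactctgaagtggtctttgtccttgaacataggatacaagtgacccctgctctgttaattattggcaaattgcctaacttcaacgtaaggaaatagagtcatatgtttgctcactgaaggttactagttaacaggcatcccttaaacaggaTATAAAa

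On CD-HFD, neighbours of Afp in the albumin gene cluster fell while Afp rose. In WT, Alb fell by 0.86 (adjusted p 0.000335), Afm, which encodes afamin, by 1.45 (5.31e-11) and Gc, which encodes the vitamin D binding protein, by 0.51 (0.000578) on the log2 scale, by edgeR's quasi-likelihood test. Afm and Gc also fell in both knockouts on CD-HFD, Alb fell in Ripk3KO (by 0.66, adjusted p 0.0126), and Alb in MlklKO was at -0.45 (0.123). On CD-LFD, Afm fell in WT (-0.72, adjusted p 0.000195) and Gc in Ripk3KO (-0.50, 0.014), and the other 7 differences of these 3 genes were not called. In MlklKO, where Afp rose on CD-LFD, they were 0.24 for Alb, 0 for Afm and -0.03 for Gc. These neighbours were chosen after values were seen. Zhx2, at 18.2 CPM in WT control and 11.7 in WT CD-HFD livers, fell by 0.67 in WT (adjusted p 0.0247), with overlapping groups, and stood at -0.49 (0.14) in Ripk3KO and -0.34 (0.373) in MlklKO. Zbtb20 was at -0.18 (0.557) in WT and -0.37 (0.253) in Ripk3KO, and fell by 0.77 (0.0304) in MlklKO. On CD-LFD, Zhx2 fell in all 3 genotypes, by 0.69 in WT (adjusted p 0.0349), 0.83 in Ripk3KO (0.0478) and 0.76 in MlklKO (0.0277), with overlapping groups, and Zbtb20 was not called (0.15, 0.25 and 0.02).

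Gpc3 was read at a few counts per library. WT control livers stood at 0.138, 0.244, 1.19, 0, 0 and 1.22 CPM, and CD-HFD livers at 0.948, 2.07, 1.75, 1.52, 1.13 and 0.516. The groups overlapped through control replicates 3 and 6. The difference was 1.33 (SE 0.599, adjusted p 0.0647), just outside the threshold, and the pooled ratio was 2.49 (95% counting interval 1.39 to 4.77). DESeq2 placed it inside, with 1.42 and adjusted p 0.0398. In MlklKO, CD-HFD livers at 0.871, 2.22 and 2.53 CPM lay above every control (at most 0.583) and CD-LFD liver (at most 0.745). Gpc3 rose there by 3.12 against control (SE 0.713, adjusted p 0.000403, edgeR) and by 1.90 against CD-LFD (SE 0.692, adjusted p 0.0406), and without control replicate 4 the first was 3.78. In Ripk3KO it rose by 1.83 (SE 0.749, adjusted p 0.0416), with overlapping groups, and without the libraries in doubt this was 1.52 with adjusted p 0.102. With no low-count filter the MlklKO differences were 3.11 (0.000551) and 1.89 (0.0851) and the Ripk3KO one 1.86 (0.0731). Leaving out any of 6 single libraries ended the Ripk3KO call (control replicates 1, 3, 5 and 6, CD-HFD replicates 1 and 5; adjusted p up to 0.17). Any of 5 ended the MlklKO call against CD-LFD (CD-LFD replicates 1, 3 and 4, CD-HFD replicates 2 and 4; up to 0.179). Another glypican, Gpc1, chosen after values were seen, went from 8.62 to 46.4 CPM in WT and rose by 2.38 (adjusted p 3.6e-08).

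Golm1 rose on the high-fat diet and was not called on the low-fat one. WT control livers stood at 1.80, 2.69, 3.41, 2.77, 0.913 and 0.489 CPM, CD-LFD livers at 1.4, 1.63, 3.43, 0.334, 1.98 and 1.07, and CD-HFD livers at 2.85, 6.70, 13.6, 4.54, 2.34 and 2.27. Replicates 1, 5 and 6 on CD-HFD lay within the control range, and replicate 3 was highest. Golm1 rose by 1.36 in WT (SE 0.474, adjusted p 0.0167), but without CD-HFD replicate 3 the difference was 0.83 with adjusted p 0.136. The knockouts separated more clearly. Ripk3KO CD-HFD livers stood at 4.99, 5.81, 11.8 and 11.3 CPM against at most 4.09 on control, and MlklKO CD-HFD livers at 13.9, 6.00 and 14.7 against at most 2.63. Golm1 rose by 2.17 (SE 0.488, adjusted p 0.000317) and 2.48 (SE 0.508, adjusted p 1e-04) in them, and by 1.81 (0.0435) and 2.52 (0.00103) against CD-LFD, by edgeR's quasi-likelihood test. The Ripk3KO call against CD-LFD was lost without CD-LFD replicate 1, 2 or 3 or CD-HFD replicate 3 or 5 (adjusted p up to 0.186). CD-LFD against control gave -0.18, 0.36 and -0.04 in WT, Ripk3KO and MlklKO (adjusted p 0.83, 0.692 and 0.962).

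The summed level of macrophage markers, though not each marker, moved with Golm1 in the WT livers. The summed level of 10 macrophage markers was 203 to 288 CPM in WT control, 248 to 410 in CD-LFD and 885 to 2070 in CD-HFD livers, with the highest sum in CD-HFD replicate 3, which also had the most Golm1. Of the 10, 6 rose and 3 fell in WT on CD-HFD, beside 23.5% and 24.1% of all tested genes. Their part in the result was not tested. In bulk liver, a change in the number of cells of a type and a change in RNA per cell cannot be told apart.

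Ly6d stood far above its control level on both choline-deficient diets in WT and Ripk3KO livers. WT control livers stood at 0.414, 0.244, 0.341, 0.307, 0.913 and 1.96 CPM, CD-LFD livers at 67.3, 112.5, 24.6, 47.9, 62.9 and 119, and CD-HFD livers at 58.8, 81.0, 98.1, 109.6, 91.4 and 120. No control liver came near the lowest choline-deficient one, and the 2 diets overlapped. The CD-LFD difference was 6.77. The CD-HFD difference was 7.15 (SE 0.664), with a pooled ratio of 149 (95% counting interval 93 to 256). In Ripk3KO, control livers stood at 0.158 to 1.93 CPM, CD-LFD livers at 105, 14.3 and 85.1, and CD-HFD livers at 106, 54.4, 136 and 58.2. By edgeR's quasi-likelihood test, Ly6d rose there by 6.98 (SE 0.65, adjusted p 1.44e-11) on CD-HFD and by 6.61 (SE 0.668, adjusted p 1.24e-09) on CD-LFD. CD-HFD against CD-LFD gave 0.37 in both genotypes (adjusted p 0.749 in Ripk3KO). Of 7 tested Ly6 family genes, Ly6d among them, listed after values were seen, 6 were called higher and 1 lower in WT on CD-HFD, beside 23.5% and 24.1% of all tested genes. Ly6d is also read in squamous epithelium. The summed level of 7 intestinal and squamous markers was 52 to 142 CPM in WT control, 90.3 to 163 in CD-LFD and 80.8 to 162 in CD-HFD livers. In Ripk3KO it was 32.5 to 210, 160 to 210 and 115 to 137 CPM on the same diets, and in MlklKO 44.4 to 60.5, 154 to 189 and 91 to 141, where control livers lay below the rest. Krt14 was at 0 counts in every WT library, and Krt5 in every Ripk3KO and MlklKO control library. Their part in the result was not tested.

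In MlklKO mice Ly6d was already high on normal chow. The 6 control livers stood at 20.7, 16.5, 14.0, 10.1, 37.5 and 0.298 CPM, so 5 of them were above every WT and Ripk3KO control liver and replicate 6 was within their range. The difference between MlklKO and WT control livers was 4.65 (SE 0.691), 4.91 without replicate 6 and 5.32 without WT control replicate 6, given without a test because WT control livers belong to the contrast through which Ly6d was known; 27.1% of all tested genes were called there in either direction. Against Ripk3KO control livers, Ly6d was 4.56 higher in MlklKO (SE 0.646, adjusted p 2.61e-05, edgeR; 7.03% of all tested genes called), a comparison added after seeing the data. On CD-LFD the MlklKO livers stood at 48.1, 31.0, 25.3 and 28.9 CPM and on CD-HFD at 58.7, 84.2 and 60.9. Within MlklKO, Ly6d rose by 2.04 on CD-HFD (SE 0.498, adjusted p 0.00084) and stood at 1.02 on CD-LFD (SE 0.472, adjusted p 0.082). Against Ripk3KO, again added after seeing the data, the MlklKO diet difference was smaller by 5.58 on CD-LFD (-5.58, SE 0.865, adjusted p 0.000656; 0.256% of all tested genes called) and by 4.94 on CD-HFD (-4.94, SE 0.89, adjusted p 0.00533; 0.0336%), by edgeR's quasi-likelihood test. Against WT the interactions were -5.75 on CD-LFD and -5.10 on CD-HFD, given without a test, beside 8.45% and 4.12% of all tested genes called. On the choline-deficient diets the difference between MlklKO and WT livers was -1.11 on CD-LFD and -0.46 on CD-HFD (adjusted p 0.775 for the latter). Ripk3KO and WT control livers differed by 0.09.

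**Figure D4:**
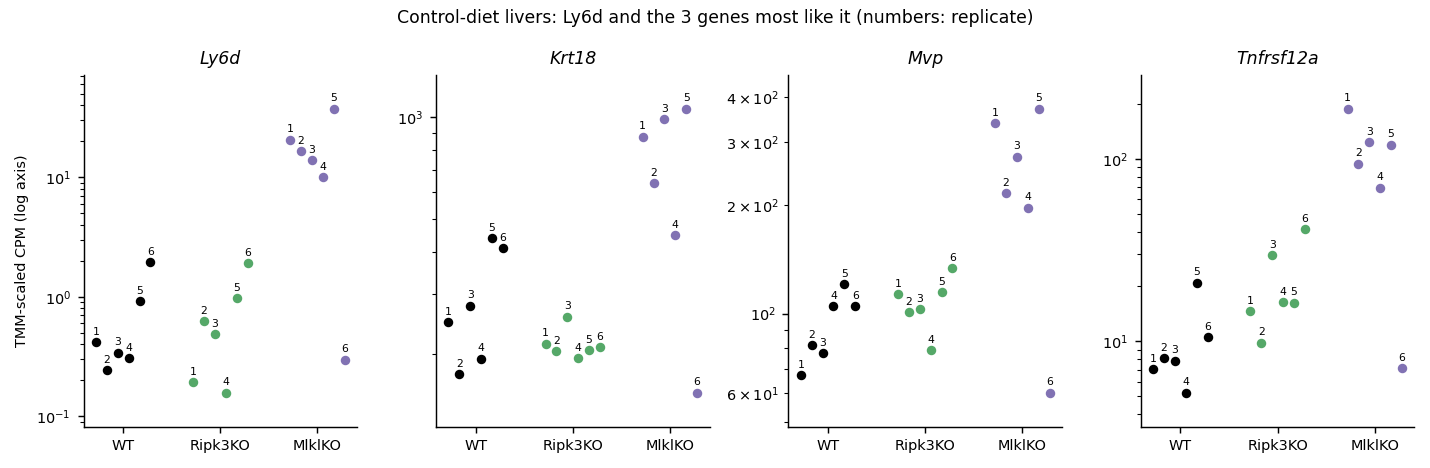
TMM-scaled CPM on a log axis in control-diet livers for Ly6d and the 3 genes whose levels followed it most closely, by genotype, with replicate numbers beside the points. In MlklKO, replicate 6 lies apart from replicates 1 to 5 in all 4 panels, at 0.298 CPM of Ly6d against 10.1 to 37.5.

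The genes that followed Ly6d most closely over the 44 libraries, once group means were removed, were Krt18 (r = 0.86), a keratin of simple epithelia, Mvp (0.85), the major vault protein, and Tnfrsf12a (0.84), the receptor of the cytokine TWEAK. MlklKO control replicate 6 was low in each of them. It held 154 CPM of Krt18 against 448 to 1060 in the other 5 livers, 60.3 of Mvp against 197 to 371, and 7.16 of Tnfrsf12a against 69.7 to 189. WT control livers held 175 to 439, 67.5 to 121 and 5.23 to 21 CPM of these genes. These genes were picked for following Ly6d in these libraries, so their low level in replicate 6 is a description. Among the cholangiocyte markers, Epcam was higher in MlklKO than in WT control livers (8.11 against 1.74 CPM, log2 difference 2.16, adjusted p 0.003, edgeR). The summed level of the list was 35.2 to 53.9 CPM in MlklKO and 35.4 to 72.8 in WT control livers, and their part in the result was not tested.

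Sox4 rose in every genotype and on both diets. WT control livers stood at 5.25, 4.64, 3.92, 9.22, 16.9 and 13.7 CPM, CD-LFD livers at 15.2, 25.4, 8.45, 14.9, 36.7 and 40.4, and CD-HFD livers at 35.6, 34.0, 39.4, 51.4, 41.5 and 67.6. CD-HFD livers were all above control livers, CD-LFD livers overlapped both, and control replicates 5 and 6 were the highest controls. Sox4 rose by 2.42 on CD-HFD (SE 0.371, adjusted p 8.48e-07) and by 1.47 on CD-LFD (SE 0.371, adjusted p 0.00272), by edgeR's quasi-likelihood test. Between the 2 diets it rose by 0.95 (adjusted p 0.0348), with overlapping groups, and leaving out CD-LFD replicate 1, 3 or 4 or CD-HFD replicate 4 or 6 ended that call (adjusted p up to 0.114). It was also lost with clock phase as a covariate (1.04, 0.17), a phase that nearly coincides with diet here, and with only the compared groups fitted (0.92, 0.0581). In Ripk3KO, levels went from 1.68 to 4.73 CPM on control to 15.4, 6.54 and 36.0 on CD-LFD, then to 49.3, 25.3, 22.5 and 28.2 on CD-HFD, and Sox4 rose by 2.76 (adjusted p 1.6e-05) and 3.40 (1.39e-08). Without CD-LFD replicate 3, whose label was in doubt, the first was 1.89 (0.0143). In MlklKO, levels went from 1.29 to 5.0 CPM to 8.23, 12.5, 8.34 and 11 and then to 27.0, 43.7 and 38.9, and Sox4 rose by 1.52 (0.00518) and 3.40 (2.04e-08). The MlklKO groups did not overlap at any step, and Sox4 rose by 1.87 between CD-LFD and CD-HFD there (adjusted p 0.00196). In Ripk3KO that step was 0.64 (adjusted p 0.419), with overlapping groups.

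Sox4 is a known target of TGF-beta signalling. Of 15 tested genes of that pathway and its targets, 12 rose and none fell in WT on CD-HFD (median 1.81), 10 rose in Ripk3KO (2.04) and 11 in MlklKO (1.92), beside 23.5%, 24.6% and 24.9% of all tested genes. Col1a1, a fibrillar collagen, went from 7.72 to 206 CPM in WT and Ltbp2, a latent TGF-beta binding protein, from 1.66 to 23.4. Of 9 tested Sox genes, Sox4 among them, listed after values were seen, 2 rose and 4 fell in WT, where 23.5% of all tested genes rose and 24.1% fell, with Sox9, a factor of bile ducts and progenitors, up by 1.13 (adjusted p 0.000156) and Sox18, an endothelial factor, down by 1.23 on the log2 scale (-1.23).

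Sox4 was lower in knockout than in WT livers on normal chow. It fell by 1.51 in Ripk3KO (SE 0.431, adjusted p 0.0327; 4.47% of all tested genes called in either direction) and by 1.28 in MlklKO (SE 0.418, adjusted p 0.0201), with overlapping groups. Neither call held in every fit. Without WT control replicates 5 and 6, the differences were -0.91 (adjusted p 0.349) and -0.68 (0.317). Leaving out either of these alone ended both calls (adjusted p 0.0726 to 0.129), as did Ripk3KO control replicate 2, 4 or 6 for the first (0.0518 to 0.0747) and MlklKO control replicate 1 or 4 for the second (0.0543 and 0.0533). With clock phase as a covariate they were -1.43 (0.239) and -1.20 (0.118). Both replicates, with 1 and 3, were of the clock phase that no knockout control library shared, and without the 4 of them and WT CD-HFD replicate 3 the differences were -1.20 (0.372) and -0.97 (0.303).

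Tspan8 rose stepwise in WT, with CD-HFD above CD-LFD and CD-LFD above control. WT control livers stood at 1.24, 0, 0.511, 0.307, 0 and 0.489 CPM, CD-LFD livers at 2.65, 5.80, 2.20, 2.50, 2.97 and 5.33, and CD-HFD livers at 11.8, 18.4, 31.9, 18.1, 13 and 16.5. The 3 groups did not overlap. Tspan8 rose by 5.05 on CD-HFD (SE 0.489, adjusted p 3.34e-11), by 2.64 on CD-LFD (SE 0.543, adjusted p 0.000315) and by 2.4 between the 2 (SE 0.351, adjusted p 2.07e-06), by edgeR's quasi-likelihood test. Without control replicate 1 the first 2 were 5.84 and 3.44. Ripk3KO livers went from at most 0.945 CPM on control to 5.0, 0.632 and 12.5 on CD-LFD, then to 24.1, 11.7, 15.6 and 22.3 on CD-HFD. There Tspan8 rose by 4.93 on CD-HFD (adjusted p 3.96e-11) and 3.45 on CD-LFD (6.05e-06), where replicate 2 stayed within the control range. Between CD-LFD and CD-HFD it rose by 1.48 (adjusted p 0.0289, edgeR), a call lost without CD-LFD replicate 1 or 2 or CD-HFD replicate 1 or 5 (adjusted p up to 0.212). Without CD-LFD replicate 3, whose label was in doubt, Tspan8 rose by 2.24 on CD-LFD (0.0197) and by 2.71 between the 2 (0.00105). MlklKO livers went from 0.862 to 2.61 CPM on control to 2.46, 3.73, 1.93 and 1.49 on CD-LFD, then to 21.8, 25.2 and 30.5 on CD-HFD. In MlklKO, Tspan8 rose by 4.0 on CD-HFD (adjusted p 4.87e-10) and CD-LFD gave 0.58 (0.339). The CD-LFD difference was 2.06 smaller in MlklKO than in WT (interaction -2.06, SE 0.75), which missed the threshold at adjusted p 0.0762 by edgeR and passed it at 0.0258 by DESeq2. The 3 CD-HFD groups overlapped.

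Cholangiocyte markers moved with Tspan8. All 11 rose in each genotype on CD-HFD, with medians of 3.45, 3.66 and 3.27, beside 23.5%, 24.6% and 24.9% of all tested genes. Their summed level was 35.4 to 72.8 CPM in WT control, 66.8 to 124 in CD-LFD and 151 to 231 in CD-HFD livers, and WT CD-HFD replicate 3 had both the highest sum and the most Tspan8. In MlklKO the sum was 35.2 to 53.9, 57.7 to 62.1 and 146 to 223 CPM. Their part in the result was not tested. Among 24 tested tetraspanins, Tspan8 among them, listed after values were seen, 11 rose and 2 fell in WT, beside 23.5% and 24.1% of all tested genes, with Cd63, a protein of endosomes and secreted vesicles, up by 4.2.

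On the choline-deficient diets no member tested there was called between knockout and WT livers. H19 is given without a test on both diets, and Ly6d on CD-LFD. On CD-LFD none of the rest was called, where 1.1% (Ripk3KO) and 2.56% (MlklKO) of all tested genes were. H19 differed there by 0.99 and 0.44 and Ly6d by -0.08 and -1.11, for Ripk3KO and MlklKO in turn. On CD-HFD none was called either, beside 0.377% of all tested genes for Ripk3KO and 0% for MlklKO by edgeR. DESeq2 called 2 genes for MlklKO on CD-HFD. H19 differed by -0.32 and -0.91, given without a test, Golm1 by 0.67 (0.71) and 1.10 (0.587) and Sox4 by -0.53 (0.736) and -0.30 (0.822) on CD-HFD, for Ripk3KO and MlklKO in turn. Ly6d aside, Sox4 was the only member called on control, for Ripk3KO (4.47% of all tested genes) and for MlklKO (27.1%). Tspan8 was just outside the threshold for MlklKO (1.55, adjusted p 0.0527, edgeR). DESeq2 called it (1.61, 0.0182), as did edgeR with the clock covariate (2.47, 0.0123) and without WT control replicate 1 (2.35, 0.0167). Its highest adjusted p over the alternatives was 0.16. H19 and Ly6d aside, tests of whether a diet difference varied with genotype called no member in any of the 4 interactions by edgeR. The shares of all tested genes called were 0.0269% for Ripk3KO on CD-LFD and 0.478% on CD-HFD, and 8.45% and 4.12% for MlklKO. DESeq2 called Tspan8 for MlklKO on CD-LFD (-2.19, adjusted p 0.0258), as did edgeR without WT control replicate 1 (-2.86, 0.0301).

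Livers within a group differed most in H19 and Ly6d, and variation between livers was among the reasons the members were listed. The within-group standard deviation of log2 CPM was 1.08 for H19, larger than for 99.2% of tested genes, and 1.10 for Ly6d (99.3%), 0.90 for Golm1, 0.80 for Tspan8, 0.79 for Gpc3, 0.69 for Sox4 and 0.54 for Afp, beside a median of 0.41 over all tested genes. Among CD-HFD livers alone it was 1.55 for H19, 0.83 for Golm1 and 0.63 for Gpc3 and 0.46 for Ly6d. Afp was the least variable member on CD-HFD (0.35).

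The high livers were not the same for every member. WT CD-HFD replicate 3 was the highest of its 6 in H19, Golm1 and Tspan8 and the fifth of 6 in Afp. Replicate 6 of that group was highest in Ly6d and Sox4 and lowest in Gpc3 and Golm1. Ripk3KO CD-HFD replicate 1 was the highest of its 4 in H19, Afp, Sox4 and Tspan8 and the lowest in Golm1. Over the 44 libraries with group means removed, the closest pair of members was H19 with Tspan8 (r = 0.43) and the most opposed was Golm1 with Sox4 (r = -0.24). These correlations share libraries and depth and are given as descriptions.

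**Figure D5:**
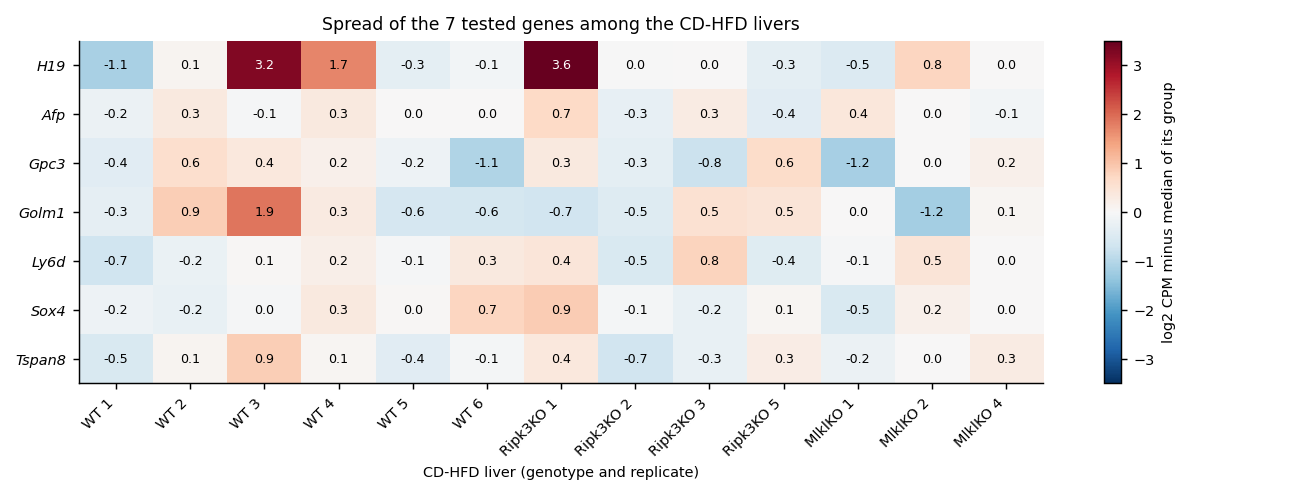
Log2 CPM of the 7 tested genes in each of the 13 CD-HFD livers, minus the median of its genotype, as a colour scale. The strongest colours are H19 in WT replicate 3 and Ripk3KO replicate 1, followed by Golm1 in WT replicate 3.

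Genes whose levels followed each member were found in the same way, as Pearson's r over 44 libraries with group means removed, and each set differed. H19 was followed by Clstn1 (0.61), Oxct1 (0.59), an enzyme of ketone body use, and Mfge8 (0.59), a secreted bridge to dying cells. Afp was followed by Med24 (0.75), a Mediator subunit, mt-Tn (0.70), a mitochondrial tRNA, and Rab36 (0.70). Gpc3 was followed by Aebp1 (0.58), Atp2a3 (0.57) and Igfbp5 (0.57), and Golm1 by Ctss (0.85), a lysosomal protease of macrophages, Itpripl2 (0.84) and F2r (0.81), a thrombin receptor. Sox4 was followed by Npdc1 (0.86), Wnt4 (0.78) and Rbms3 (0.77). Tspan8 was followed by Rab27b (0.84), a GTPase of vesicle secretion, Mmp2 (0.73), a matrix protease, and Scube3 (0.73). WT CD-HFD replicate 3, the highest WT liver in H19, Golm1 and Tspan8, was also the highest of its group in Clstn1 (25.1 CPM), Mfge8 (223), Ctss (503) and Rab27b (9.93).

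Other tumour and progenitor genes moved with the members. Of 29 tested genes on such a list, 23 rose and 2 fell in WT on CD-HFD (median 1.83), 21 rose and none fell in Ripk3KO (1.90), and 20 rose and 4 fell in MlklKO (1.89). Over all tested genes 23.5%, 24.6% and 24.9% were called higher and 24.1%, 21.7% and 20.3% lower. Lcn2, which encodes a secreted iron-trapping protein, went from 2.44 to 418 CPM in WT and rose by 7.38. Sult1e1, the oestrogen sulphotransferase, had 8 counts in the WT controls and a pooled ratio of 127 (95% counting interval 64.5 to 295). Proliferation genes rose in 18 of 20 in WT, 15 in Ripk3KO and 16 in MlklKO. Ccnb1, a mitotic cyclin, had 4 counts in the WT controls and a pooled ratio of 20.9 (95% counting interval 8 to 77.4). Top2a, the topoisomerase of dividing cells, went from 1.12 to 10.7 CPM in WT.

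Genes of mature hepatocytes moved the other way. Of 24 tested, 20 fell and none rose in WT (median -0.86), and with library sizes in place of TMM factors 9 fell. By the TMM fit 16 and 12 fell in Ripk3KO and MlklKO (-0.78 and -0.79). G6pc, the last enzyme of glucose release, went from 855 to 114 CPM and Ugt2b1, a conjugating enzyme, from 483 to 115 in WT. Stellate cell markers rose in 8 of 10 in each genotype, and endothelial markers fell in 6, 4 and 1 of 8 in WT, Ripk3KO and MlklKO, where 24.1%, 21.7% and 20.3% of all tested genes fell. T, natural killer and B cell markers rose in 5, 7 and 7 of 9. Over all tested genes 23.5%, 24.6% and 24.9% were called higher in WT, Ripk3KO and MlklKO. The part of these cell types in the members' results was not tested.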

How the data were processed

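The values are raw read counts per gene, deposited by the authors as 1 table of 44 libraries. Per the labels' protocols, libraries were directional and made from total liver RNA. Per the submitters' processing notes, FastQC, STAR, HTSeq, edgeR and limma were used on GRCm39 (mm39). Their versions and the annotation are not given in the sources used here. Ensembl identifiers were matched to symbols for 34373 genes, and the 876 unmatched ones held 0.0838% of counts.

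Counts were fitted with edgeR 4.0.16 in R 4.3.3 (TMM scaling, filterByExpr with a minimum count of 10, a mean for each of 9 groups, quasi-likelihood test). The 14862 tested genes held 99.8% of counts. Benjamini-Hochberg adjustment ran over all tested genes in each of 19 comparisons. Standard errors came from the log2 difference and its F statistic. Alternatives used DESeq2 1.42.0, other scalings, no filter, a clock covariate, a replicate block, and libraries left out. Levels are CPM, and log2 CPM used a prior count of 2. Counting intervals are exact at 95% and, like the floor of 3 counts, cover counting error only. Counts simulated with known changes were also fitted, and the outcome is not reported here. No 2 libraries of a group agreed within sampling noise (chi-square per degree of freedom 6.59 to 96.7).

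The members and gene lists were chosen with earlier results of these data known. All 8 members are named. From each pathway list, the text names genes from the 2 largest rises and 2 largest falls with a called, non-overlapping WT CD-HFD against control difference and a mean log2 CPM of at least 1. For each member the 3 genes most like it are named. Other genes were chosen after their values were seen: RNAs of the Dlk1-Meg3 domain, Afp's neighbours and repressors, single cell type markers, and relatives of the members. Sequences are RefSeq's on GRCm38.p6. A promoter was found for 6 of 8 members.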

Additional observations from a re-analysis of the deposited data

Results flagged for a closer look

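Of 46 sets of 1 gene in 1 group of 4 or more libraries, 3 held a library far from the others by Dixon's criterion. Chance meets it in about 1 in 20 sets, so 3 of 46 is near the number chance gives, and the members were listed in part because they vary between livers, so these values are a description and not a test. H19 stood at 89.6 CPM in WT CD-HFD replicate 3, with the other 5 libraries at 4.06 to 30.8. H19 stood at 67.3 CPM in Ripk3KO CD-HFD replicate 1, with the other 3 at 4.18 to 5.42. Tspan8 stood at 31.9 CPM in WT CD-HFD replicate 3, with the others at 11.8 to 18.4. Without WT CD-HFD replicate 3, the H19 difference between control and CD-HFD in WT was 7.10, and Tspan8 rose by 4.81 (adjusted p 1.37e-10) by edgeR's quasi-likelihood test. Without Ripk3KO CD-HFD replicate 1, H19 rose by 5.24 in that genotype (adjusted p 3.1e-05, edgeR). WT CD-HFD replicate 3 also held the highest macrophage marker sum of its group (2070 CPM, others 885 to 1300) and the highest stellate cell marker sum (1620 CPM, others 855 to 1380), and Ripk3KO CD-HFD replicate 1 the highest cholangiocyte marker sum (232 CPM, others 123 to 177). Their part in the high values was not tested.

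The Ly6d response to the choline-deficient diets was smaller in MlklKO than in WT livers, with an interaction of -5.75 for CD-LFD and -5.10 for CD-HFD, and -6.02 and -5.37 without MlklKO control replicate 6. These are given as descriptions, because WT control and CD-LFD livers belong to the contrast through which Ly6d was known. The same differences against Ripk3KO, added after seeing the data, were -5.58 (adjusted p 0.000656) and -4.94 (adjusted p 0.00533), by edgeR's quasi-likelihood test. MlklKO control livers already averaged 16.5 CPM of Ly6d against 0.696 in WT. On CD-HFD, MlklKO and WT livers differed by -0.46 (adjusted p 0.775, edgeR).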

How the results depend on the processing

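Leaving aside 7 called differences given as descriptions, 40 member results passed the threshold. Their 762 alternative fits gave 705 with the same direction and call, 57 that lost the call and none that changed direction. Of the 40, 29 kept the call under each alternative run. For counts of members or list genes, 540 of 564 alternatives stayed within 1.5 times the main value. Counts of members here are over all 7 tested, those given as descriptions included. With library sizes in place of TMM factors, the median over all genes in WT CD-HFD against control moved from -0.07 to 0.43, the mature hepatocyte genes called lower in WT went from 20 to 9, and 1 member instead of 0 was called between MlklKO and WT on CD-LFD. Leaving out 1 library gave 0 to 1 there, with Sox4 at -1.45 (adjusted p 0.0325) without WT CD-LFD replicate 3. On control, Ripk3KO against WT called 0 members instead of 1 with the clock covariate, with only the compared groups fitted, without WT control replicates 5 and 6, and without the WT control and WT CD-HFD libraries of the smaller clock set, 5 of its 11 libraries (added after seeing the data). Leaving out 1 library gave 0 to 1. MlklKO against WT on control called 1 instead of 2 without WT control replicates 5 and 6 and without those 5 libraries. With 1 library left out it called as few as 1. Without WT control replicate 1, Tspan8 was called there besides Sox4 and Ly6d (2.35, adjusted p 0.0167, edgeR). The MlklKO interaction on CD-LFD called 2 instead of 1 by DESeq2 and 1 to 2 with 1 library left out. Ripk3KO CD-HFD against CD-LFD called 1 to 3 with 1 library left out. The cause was not tested.

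Replicate numbers did not pair the libraries: same-numbered libraries of WT control and CD-HFD correlated at -0.15 to 0.44 in their deviations. With the replicate number as a block, 1 member call was lost, Gpc3 in MlklKO CD-HFD against CD-LFD (1.80, adjusted p 0.0557). Gpc3, and H19 in control livers, rest on few counts per library, which limits the precision of their differences.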
